A study of Mus musculus with 8 samples.

Results

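MicroRNAs (miRNAs) were described in cells given the E95K mutant of Indian hedgehog. Arrays labelled with E95K mutant IhhN (MT group) were set against arrays labelled with no induction (control group). The label of the induction chose 4 of the 8 arrays of the series, 2 for each group, and the remaining 4 arrays belong to cells incubated with the wild type protein (WT group). All cells were C3H10T1/2, a mouse mesenchymal line that answers to hedgehog proteins and can form cartilage and bone. MT cells were kept for 48 h with 750 nM recombinant human IhhN, the signalling part of the protein, carrying the brachydactyly type A1 change. Control cells were kept for the same 48 h. The labels call them cells without protein but also write 750 nM for them, so their dose was taken as not given. Each group had 2 RNA samples, and no label says that they came from separate cultures, so the p-values measure only the spread between these samples. The arrays measured RNA from whole cultures, in which fewer cells with a miRNA and less of it per cell cannot be told apart.

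The array held 611 mouse miRNAs. Of these, 142 were tested, which took detection on every array of 1 group or more, and 455 were detected on no MT or control array. All 142 were detected on both control arrays, 106 of them also on both MT arrays, 28 on 1 MT array and 8 on none. In all 28 cases the MT array that detected the miRNA was replicate 2. On MT replicate 1 the lowest detected signal was 5.25 on the log2 scale and 106 miRNAs were detected, against 4.07 and 143 on MT replicate 2 and 146 to 150 on the control arrays. The 36 miRNAs not detected on both MT arrays therefore entered the test through the control group, and counts over them are not evidence of a direction. Both MT arrays lay on the left and both control arrays on the right of the lower row of 1 slide, so group and place on the slide cannot be told apart in this comparison. WT replicate 1 lay on the left and WT replicate 2 on the right of the upper row. Their arrays also differed in miRNAs detected, 104 and 117 against 144 and 147. Place, signal over background and RNA sample therefore cannot be told apart between the WT replicates. The labelled cell type was checked on marker miRNAs. Of 17 mesenchymal marker miRNAs, 12 were detected on all 4 arrays, with a summed linear level of 20990 to 22192 in MT and 19452 to 20424 in control. No marker of skeletal muscle, blood, epithelium, hepatocytes, pluripotent cells or endothelium was detected on any of the 4 arrays, and of the 6 neuron markers only miR-128-3p was.

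Hedgehog proteins bind the receptor Patched 1, which frees Smoothened and lets Gli factors drive transcription. IHH made by chondrocytes controls their proliferation and differentiation in the growth plate. A miRNA is cut from a hairpin RNA, whose left (5p) and right (3p) arm can each give a mature strand of about the length of the sequences printed here. Bases 2 to 8 of the mature strand, the seed, pair with the mRNAs that are held down, so miRNAs with a common seed form a family with overlapping targets. Neighbouring hairpins are often cut from 1 long transcript and form a genomic cluster.

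The sequences below are those on which the comparison by family and arm turned. They were taken from RefSeq on GRCm38.p6, which matched 122 of the 142 tested miRNAs, and are written 5′ to 3′ with the seed in capitals. The miR-15 family is shown because 3 of the 4 members detected on all 4 arrays were lower and 1 was higher in MT. The last, miR-322-5p, lies at chrX:53054306-53054327 on the minus strand, miR-15a-5p at chr14:61632075-61632096 on the minus strand and miR-15b-5p at chr3:69009775-69009796 on the plus strand.
miR-15a-5p: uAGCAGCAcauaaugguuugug
miR-15b-5p: uAGCAGCAcaucaugguuuaca
miR-16-5p: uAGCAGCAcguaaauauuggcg
miR-195-5p: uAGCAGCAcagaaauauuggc
miR-322-5p: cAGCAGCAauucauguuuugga

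The miR-148 family is shown because 2 members of the same length that differ at 2 bases lay on opposite sides. The first lies at chr6:51269829-51269850 on the minus strand, the second at chr15:103285185-103285206 on the plus strand and the third at chr11:96850439-96850459 on the plus strand.
miR-148a-3p: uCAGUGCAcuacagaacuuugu
miR-148b-3p: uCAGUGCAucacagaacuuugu
miR-152-3p: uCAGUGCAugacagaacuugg

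The miR-17 family is shown because miR-93-5p and miR-106b-5p, cut from 1 transcript at chr5:138165574-138165596 and chr5:138165787-138165807 on the minus strand, lay on opposite sides.
miR-20a-5p: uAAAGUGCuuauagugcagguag
miR-20b-5p: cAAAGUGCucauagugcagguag
miR-93-5p: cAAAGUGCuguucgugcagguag
miR-106b-5p: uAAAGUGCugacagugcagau

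The let-7 family was the largest and among the brightest.
let-7a-5p: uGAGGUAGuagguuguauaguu
let-7b-5p: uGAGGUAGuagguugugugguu
let-7c-5p: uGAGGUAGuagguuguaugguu
let-7d-5p: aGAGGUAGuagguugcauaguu
let-7e-5p: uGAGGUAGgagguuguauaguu
let-7f-5p: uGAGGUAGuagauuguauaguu
let-7g-5p: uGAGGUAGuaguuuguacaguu
let-7i-5p: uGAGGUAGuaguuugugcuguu
miR-98-5p: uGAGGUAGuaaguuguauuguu

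Both arms of 2 hairpins are shown because the arms lay on opposite sides, although the 3p arm of miR-542 was not well above background in MT. The miR-542 arms lie at chrX:53049453-53049474 (5p) and chrX:53049415-53049436 (3p), and the miR-34b arms at chr9:51103610-51103632 (5p) and chr9:51103574-51103595 (3p), all on the minus strand.
miR-542-5p: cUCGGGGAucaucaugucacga
miR-542-3p: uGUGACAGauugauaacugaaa
miR-34b-5p: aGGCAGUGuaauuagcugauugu
miR-34b-3p: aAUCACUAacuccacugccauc

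The last group holds miRNAs with the smallest p on either side among those detected and not overlapping on the 4 arrays. They lie at chr1:162223438-162223459 on the plus strand (miR-214-3p), at chr11:77078122-77078144 on the minus strand (miR-423-5p), and, for miR-29b-3p, at chr6:31063025-31063047 on the minus and chr1:195037091-195037113 on the plus strand.
miR-214-3p: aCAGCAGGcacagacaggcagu
miR-423-5p: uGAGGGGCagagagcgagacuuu
miR-29b-3p: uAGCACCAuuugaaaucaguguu
miR-26b-5p: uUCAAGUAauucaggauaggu

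No miRNA passed an adjusted p of 0.05 between MT and control in limma's moderated test over the 142 miRNAs (percent called 0). The smallest adjusted p was 0.0611. That count was not stable, since 66 miRNAs passed under normexp background correction and 29 when only the 103 miRNAs detected on every array of the series were tested. At an unadjusted p under 0.05, 38 miRNAs (26.8%) were higher and 18 (12.7%) were lower in MT, 2 of the 18 without detection on either MT array. Among the 106 miRNAs detected on all 4 arrays, 34 were higher and 13 lower at that p. With slide side added to the model the counts over all 142 were 0 and 0. In that model side is estimated from the 2 WT samples alone, and the SE of each difference widens. The loss of calls was therefore largely built in and is no test of side. The 2 MT and 2 control arrays did not overlap for 96 miRNAs (67.6%), of which 58 (40.8%) were higher and 38 (26.8%) were lower in MT. Among the 106 detected on all 4 arrays, 48 were higher and 28 lower without overlap. Differences were small. Among the 106 miRNAs detected on all 4 arrays they ran from -0.89 to 1.30 on the log2 scale, 1 was past 2-fold, and their median size was 0.44, against a median SE of 0.18. The median difference over all 142 miRNAs was 0.13, and the sign of a single small difference turns on the scaling. When arrays were scaled on all mouse probes, 0 miRNAs were higher and 26 lower at an unadjusted p under 0.05. Quantile normalization gave 28 higher and 25 lower, the summed signal of each miRNA 13 higher and 10 lower, and normexp background correction 71 higher and 10 lower. Medians of groups of miRNAs given below are therefore to be read against the median of 0.13. For some groups the place relative to it is given as well. When MT replicate 1 was left out, 16 were higher and 6 lower at that p and none passed the adjusted threshold. Without MT replicate 2, 18 miRNAs passed it, 11 higher and 7 lower. Without control replicate 1 the counts at the unadjusted p were 37 and 6, and without control replicate 2 they were 32 and 2.

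Among the 106 miRNAs detected on all 4 arrays, the 10 with the smallest p on the higher side were miR-423-5p, miR-214-3p, miR-181a-5p, miR-99b-5p, let-7b-5p, miR-202-3p, miR-93-5p, miR-193b-3p, miR-328-3p and miR-484. The control means of the last 2, 4.82 and 5.03, lay under the lowest signal detected on MT replicate 1, so detection on both MT arrays had itself favoured their higher side. All 10 had an adjusted p of 0.0611 in limma. miR-214-3p, cut from the Dnm3os transcript and known to hold back bone formation, read 10.24 and 10.14 in the MT samples and 9.49 and 9.32 in the control samples on the log2 scale of scaled intensity. Both MT values lay above both control values, a difference of 0.78 (SE 0.15), or 1.72-fold. miR-423-5p, whose gene lies inside the span of Nsrp1, read 6.26 and 6.18 in MT and 5.33 and 5.47 in control, which made 0.82 (SE 0.16), or 1.76-fold. miR-181a-5p, a miRNA known for its part in lymphocyte signalling, read 6.25 and 5.99 in MT and 5.37 and 5.26 in control. Its difference was 0.80 (SE 0.17). In the WT samples the same 3 miRNAs read 9.96 and 9.83, 6.09 and 5.86, and 5.93 and 5.67. The summed signal of each miRNA put miR-181a-5p 0.03 below the median, where the other 9 stayed above it.

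The 10 with the smallest p on the lower side were miR-29b-3p, miR-26b-5p, miR-148a-3p, miR-146b-5p, miR-16-5p, miR-15a-5p, miR-130a-3p, miR-106b-5p, miR-31-3p and miR-34c-5p, with adjusted p from 0.0611 to 0.106 in limma. miR-29b-3p, which holds down collagen genes, read 6.42 and 6.33 in MT and 7.36 and 7.18 in control. The MT values lay below both control values by 0.89 on average (SE 0.22), or 1.85-fold. Its 2 WT samples read 5.90 and 6.52. The summed signal of each miRNA turned its direction, with MT 3.41 above the median, so the size and sign for miR-29b-3p depended on the signal column. miR-26b-5p read 6.56 and 6.80 in MT and 7.25 and 7.43 in control, a difference of -0.66 (SE 0.20). miR-146b-5p, known as a brake on NF-κB signalling, read 8.82 and 8.98 in MT and 9.31 and 9.52 in control, a difference of -0.52 (SE 0.16). Of the 20 miRNAs named in both directions, 13 had at least 2 probes detected on all 4 arrays, and all probes of each of the 13 lay on 1 side of 0. For all 20, both WT samples also lay on the MT side of both control samples. None of these differences is therefore read as particular to the mutant protein.

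**Figure D1:**
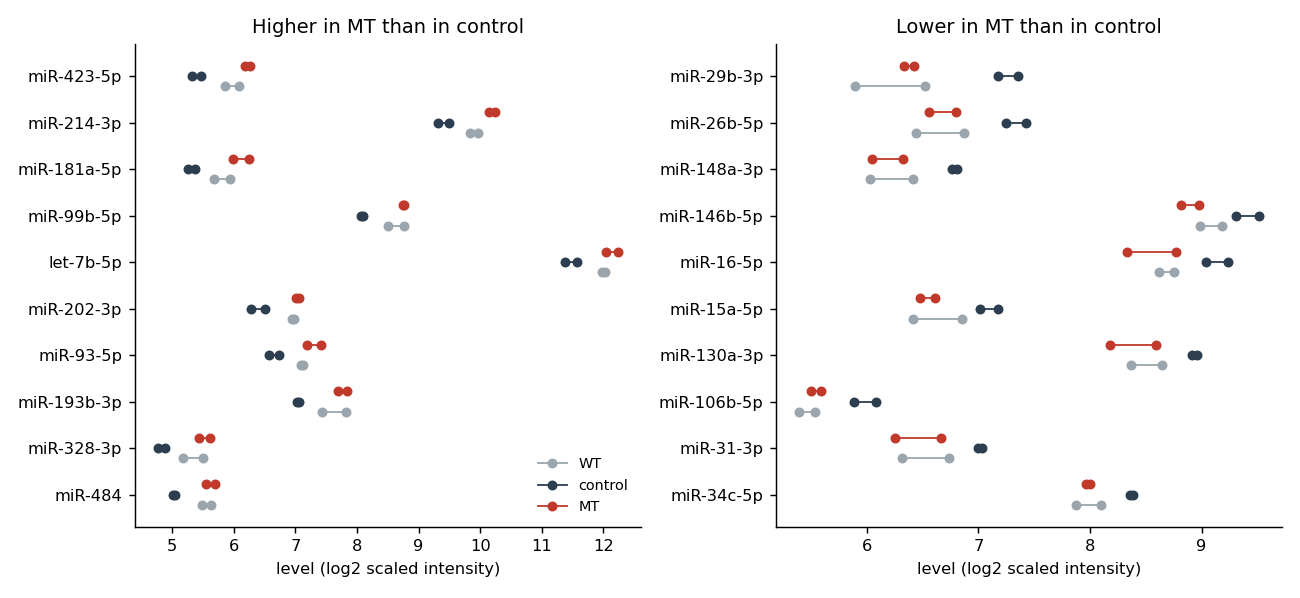
Levels of the 20 miRNAs with the smallest p on either side, on the log2 scale of scaled intensity. Each point is an RNA sample (2 per group; red MT, dark control, grey WT) and the line joins the 2 samples of a group; MT and control do not overlap for any of them, as the choice of miRNAs required.

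Large differences did not always go with a small p. miR-188-5p had the largest one, 1.30 (SE 0.76), but read 7.24 and 4.57 in MT and 4.24 and 4.99 in control, so that 1 MT sample stood apart and the groups overlapped. miR-210-3p, the miRNA that hypoxia induces in many cells, read 9.07 and 9.12 in MT and 9.03 and 7.16 in control. Its difference of 1.00 (SE 0.57) came with control replicate 2, the single low sample. The brightest miRNA in control was miR-125b-5p, which targets Smoothened, at 13.56 and 13.57 in MT and 13.25 and 13.08 in control, a difference of 0.40 (SE 0.16, adjusted p = 0.114 in limma). miR-21-5p, abundant in fibroblasts, read 11.26 and 11.73 in MT and 12.13 and 12.29 in control, a difference of -0.71 (SE 0.28, adjusted p = 0.106). let-7c-5p and let-7a-5p, also among the 5 brightest, were higher by 0.61 and 0.52. miR-720, which has been described as a tRNA fragment, read 12.00 and 12.85 in MT and 13.30 and 12.47 in control, and the groups overlapped.

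There were 9 seed families with at least 3 tested members, and together they held 38 miRNAs. At an unadjusted p under 0.05, 9 of the 38 were higher and 9 lower (miR-195-5p, not detected in MT, among the lower), beside 26.8% and 12.7% over all tested. In 6 of the 9 families members lay on both sides of 0, where 57.7% of all tested lay above it and 42.3% below, so nothing particular to families is read from it. The gap between the highest and the lowest member had a median of 0.88 and ran from 0.19 to 1.23 on the log2 scale. Only the 3 members of the miR-125 family all lay above 0, and only the miR-29 and miR-34 families had all 3 below.

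In the miR-15 family, whose members target Bcl2 and cyclins, 3 of the 4 members detected on all 4 arrays were lower in MT and the median of the 4 was -0.57. miR-16-5p read 8.33 and 8.77 in MT and 9.24 and 9.04 in control (-0.59, SE 0.19). miR-15a-5p was lower by 0.56 and miR-322-5p by 0.79 (SE 0.34). miR-195-5p was not well above background on either MT array, at a control mean of 4.44, which allows no fold. miR-15b-5p alone was higher, at 9.21 and 9.13 in MT and 8.92 and 8.54 in control (0.44, SE 0.19). None of these passed the adjusted threshold (for miR-15b-5p, adjusted p = 0.132 in limma). Between the WT replicates, left minus right on the slide, miR-15a-5p lay at -0.44 and miR-15b-5p at 0.31. miR-15a-5p and miR-15b-5p share their seed and length and the same 40.9% of G and C. With the floor values of miR-195-5p included, the family median lay 0.69 below that of all tested, and 0.26 below it with slide side added to the model.

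The miR-148 family gave the widest split by the fewest bases. miR-148a-3p read 6.05 and 6.32 in MT and 6.80 and 6.76 in control, a difference of -0.60 (SE 0.19). miR-148b-3p read 6.84 and 6.63 in MT and 6.06 and 6.23 in control, a difference of 0.59 (SE 0.16). Both contained 40.9% G and C, did not overlap between groups and differed from each other in their MT-minus-control difference by 1.19 on the log2 scale, with adjusted p of 0.0752 and 0.0611 in limma. Between the WT replicates miR-148a-3p lay at -0.38 and miR-148b-3p at 0.12. miR-152-3p was lower by 0.31 (SE 0.18).

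In the miR-17 family, known for driving cell growth, miR-93-5p read 7.42 and 7.18 in MT and 6.57 and 6.74 in control (0.65, SE 0.16). miR-106b-5p read 5.58 and 5.50 in MT and 5.89 and 6.08 in control (-0.44, SE 0.16). miR-20a-5p and miR-20b-5p were lower by 0.25 and 0.19, and miR-20b-5p was detected on only 1 MT array. The family median was 0.35 below the median of all tested, but lay 0.05 above it when only miRNAs detected on all 8 arrays were kept.

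The let-7 family, which restrains growth and rises as cells differentiate, had 7 of 9 members higher in MT and a median of 0.27. let-7b-5p read 12.24 and 12.05 in MT and 11.38 and 11.56 in control (0.67, SE 0.16). let-7c-5p, let-7a-5p and let-7d-5p were higher by 0.61, 0.52 and 0.43, and these 4 were the members with an unadjusted p under 0.05. let-7g-5p and let-7i-5p were lower by 0.30 and 0.23, with MT and control samples apart. let-7a-5p and let-7c-5p differ at 1 base and let-7a-5p and let-7g-5p at 2, so that probes may read near-identical members together and single values are uncertain. The family lay 0.14 above the median of all tested, but 0.05 below it under normexp background correction.

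The miR-30 family had 4 of 5 members lower and a median of -0.27, with miR-30e-5p lower by 0.67 (SE 0.19) and detected on 1 MT array. The miR-29 family, which targets collagens, had a median of -0.36. Its members differed widely, since miR-29a-3p lay at -0.01 (SE 0.18) where miR-29b-3p was 0.89 lower, and with slide side added to the model the family median lay 0.07 above that of all tested. Between the WT replicates, left minus right, the family median was -0.58. The miR-34 family, which p53 induces, had a median of -0.39. Its miR-34a-5p read 8.97 and 8.71 in MT and 8.86 and 8.82 in control, so the groups overlapped, and miR-34b-5p and miR-34c-5p were lower by 0.57 and 0.39. In the miR-125 family miR-125a-5p was higher by 0.54 (SE 0.14), miR-125b-5p by 0.40 and miR-351-5p by 0.35. The miR-99 family was not uniform, with miR-99b-5p higher by 0.68 (SE 0.16) and miR-100-5p and miR-99a-5p at 0.16 and -0.07, and its median changed side of the overall median in 5 alternatives. miR-30b-5p, miR-30d-5p and miR-34c-5p were placed in their families by name.

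**Figure D2:**
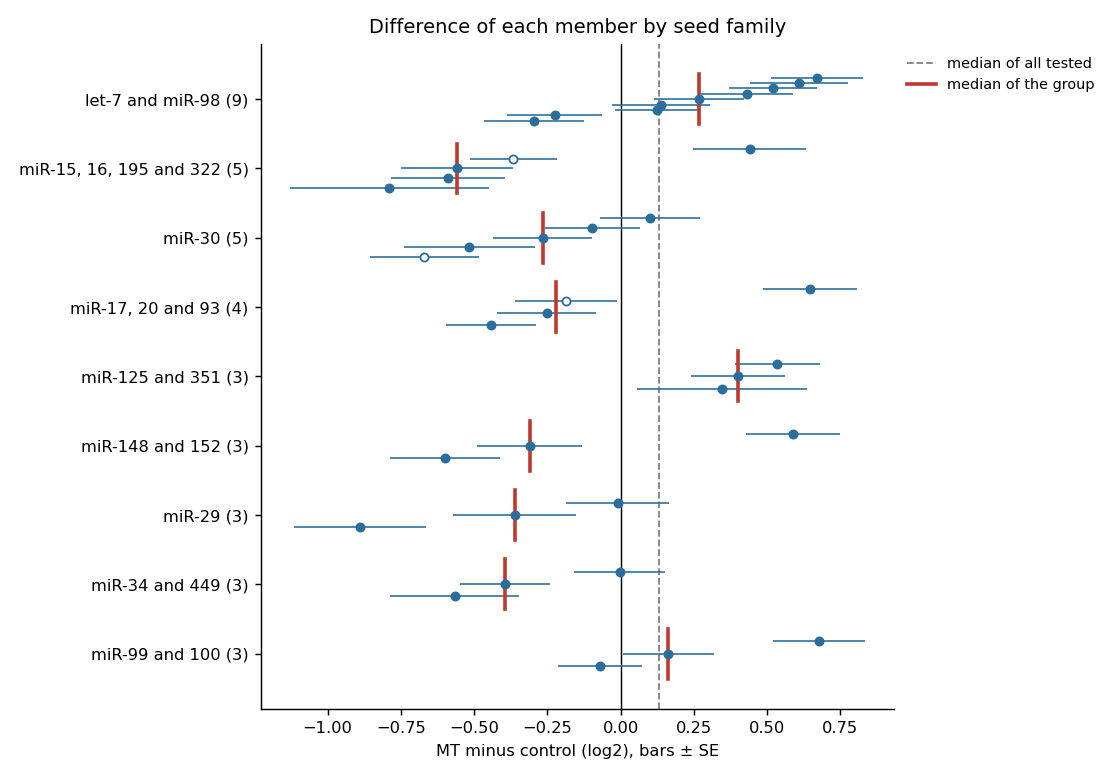
Difference between MT and control (log2, x axis) for each tested member of the 9 seed families with at least 3 tested members; points are miRNAs, bars are ± SE, open points were not detected on both MT arrays, the red line is the median of the family and the dashed line the median of all tested (0.13). The miR-15, miR-148 and miR-17 families each have 1 member far to the right of the others.

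Another 13 seeds had 2 tested members. In 3 of these pairs the members lay on opposite sides of 0. miR-130a-3p and miR-301a-3p were both lower, by 0.55 and 0.98, with miR-301a-3p detected on 1 MT array. miR-181a-5p and miR-181b-5p were both higher, by 0.80 and 0.43. The control mean of miR-181b-5p, 5.19, lay under the lowest signal detected on MT replicate 1. Its detection on both MT arrays had thus favoured the higher side. Such a control mean was found for 9 of the 106 miRNAs detected on all 4 arrays, all 9 higher in MT. miR-199a-5p and miR-199b-5p were both higher, by 0.59 and 0.41. miR-193b-3p was higher by 0.73 where for its partner miR-193-3p the groups overlapped, the widest gap of the 13 pairs.

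Clusters were drawn from the positions of miRNA genes no more than 10 kb apart on 1 strand. In all, 11 clusters had at least 3 tested members and together held 39 different miRNAs, of which 9 were higher and 6 lower at an unadjusted p under 0.05, beside 26.8% and 12.7% over all tested. In 9 of the 11, members lay on both sides of 0, as all tested miRNAs did (57.7% above). A miRNA made from several loci counts in each of its clusters, and the arrays cannot say which locus it came from.

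The 8 tested members of the X-linked miR-322 to miR-450 cluster (chrX:53047997-53054349, minus strand) had a median of -0.39, which is 0.52 below that of all tested, and 5 of 8 were detected on all 4 arrays. miR-322-5p read 8.87 and 8.93 in MT and 9.33 and 10.05 in control (-0.79, SE 0.34). miR-450a-5p and miR-322-3p were lower by 0.47 and 0.32, and miR-503-5p read 6.55 and 5.31 in MT and 5.80 and 7.14 in control, so its groups overlapped. miR-542-3p was not well above background on either MT array and read 4.99 and 5.15 in control. Its control mean lay 1.32-fold above the mean of the lowest signals detected on the MT arrays (adjusted p = 0.0611 in limma). On MT replicate 1 that lowest signal, 5.25, was above both control values, so the 1.32-fold is no firm minimum. miR-542-3p entered the test through the control group, and that p rests on 2 MT values at the floor. miR-351-5p and miR-542-5p of the same cluster lay at 0.35 and 0.19. Within the WT group the same 8 miRNAs had a median of -0.50 for replicate 1 (left on the slide) minus replicate 2 (right). With slide side added to the model the MT cluster median lay 0.04 below that of all tested, against 0.52.

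The miR-199a and miR-214 cluster (chr1:162217814-162223477, plus strand, inside the span of Dnm3), made in mesenchyme and needed for normal skeletal growth, had a median of 0.38, which is 0.25 above that of all tested. Besides miR-214-3p, miR-199a-5p was higher, at 9.73 and 9.59 in MT and 9.12 and 9.03 in control (0.59, SE 0.16). The other strand of the same hairpin, miR-199a-3p, read 10.51 and 10.51 in MT and 10.67 and 10.78 in control (-0.21, SE 0.16). miR-214-5p lay at 0.18 and was detected on 1 MT array.

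The cluster of miR-99b, let-7e and miR-125a (chr17:17830194-17830879, plus strand) had all 3 members higher and a median of 0.54, which is 0.40 above that of all tested but 0.13 above it under normexp background correction. miR-99b-5p read 8.76 and 8.74 in MT and 8.09 and 8.06 in control. miR-125a-5p read 9.61 and 9.67 in MT and 9.16 and 9.05 in control. let-7e-5p read 11.04 in both MT samples and 10.65 and 10.89 in control, a difference of 0.27 (SE 0.15). The let-7a, let-7d and let-7f cluster (chr13:48536012-48538272, minus strand) also had all 3 members higher, with a median of 0.43, which is 0.30 above that of all tested, but 0.03 under normexp and 0.09 with slide side added to the model. The arrays of the 2 groups did not overlap for any member of these 2 clusters, beside 40.8% of all tested on the higher side.

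In the clusters of the miR-17 kind the members were split. In that of miR-106b, miR-93 and miR-25 (chr5:138165321-138165818, minus strand, inside the span of Mcm7), miR-93-5p and miR-25-3p were higher by 0.65 and 0.33 and miR-106b-5p was lower by 0.44. In the miR-17 to miR-92a cluster (chr14:115043671-115044506, plus strand), miR-92a-3p read 7.62 and 7.60 in MT and 7.04 and 7.13 in control (0.53, SE 0.14). miR-19b-3p read 4.98 and 5.40 in MT and 6.06 and 6.26 in control (-0.97, SE 0.36), and was detected on 1 MT array. Between the WT replicates, left minus right, miR-19b-3p lay at -1.14 and miR-92a-3p at 0.01. miR-20a-5p of the same transcript was lower by 0.25. The paralogous cluster on chromosome X (chrX:52741693-52742567, minus strand) shares miR-19b-3p and miR-92a-3p with it and adds miR-20b-5p.

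The remaining clusters differed little or were split. The members of the miR-23b, miR-27b and miR-24-1 cluster (chr13:63300484-63301275, plus strand) lay between -0.14 and 0.02, and those of the miR-23a, miR-27a and miR-24-2 cluster (chr8:84208518-84208921, plus strand) between -0.11 and 0.36. No member of either had an unadjusted p under 0.05, and only miR-27a-3p did not overlap between groups. In the miR-34b and miR-34c cluster (chr9:51103034-51103645, minus strand) miR-34b-5p and miR-34c-5p were lower and miR-34b-3p was higher. In the miR-29a and miR-29b-1 cluster (chr6:31062660-31063093, minus strand) miR-29b-3p was lower, miR-29a-3p overlapped between groups and miR-29b-1-5p lay at 0.33 with detection on 1 MT array.

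**Figure D3:**
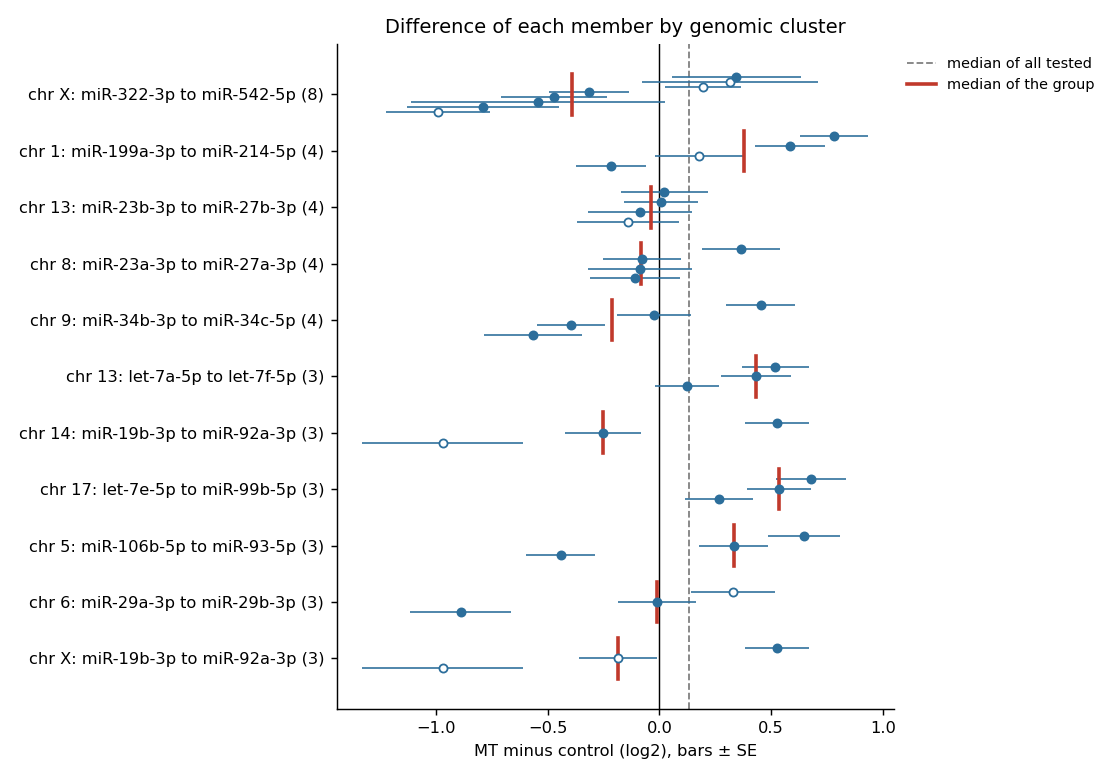
Difference between MT and control (log2, x axis) for each tested member of the 11 genomic clusters with at least 3 tested members; points are miRNAs, bars are ± SE, open points were not detected on both MT arrays, the red line is the median of the cluster and the dashed line the median of all tested (0.13). The cluster on chromosome 17 lies wholly to the right of the dashed line, and both clusters with miR-19b-3p and miR-92a-3p span more than 1 unit.

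Strands of a single hairpin were compared where both arms were tested, which held for 11 hairpins. In 5 of the 11 the arms lay on opposite sides of 0, and the median gap between arms was 0.59 on the log2 scale, with miR-542-3p at its floor value. miR-34b-5p read 7.53 and 7.41 in MT and 7.90 and 8.18 in control (-0.57, SE 0.22), whereas miR-34b-3p read 7.01 and 6.91 in MT and 6.55 and 6.47 in control (0.45, SE 0.16). miR-31-5p lay at 0.29 and miR-31-3p at -0.56. The arms also parted between the WT replicates, left minus right, at -0.55 and 0.22 for miR-34b, 0.28 and -0.42 for miR-31 and 0.22 and -0.24 for miR-199a (5p and 3p in turn). miR-140, a miRNA of cartilage, lay at -0.26 for the 5p and 0.33 for the 3p strand, and for both strands MT and control overlapped. Over all tested miRNAs the arms differed little, with a median of 0.10 for 73 miRNAs of the 5p arm and 0.12 for 56 of the 3p arm.

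The differences had almost no linear relation to the level of the miRNA. Across the 142 miRNAs the correlation of the difference with the mean level over the 6 RNA samples was -0.01 (Pearson's r, as a description, since all values share the same arrays). The miRNAs were ranked by that level and split into 3 classes of equal size. In the highest class, from 7.79 to 13.40 on the log2 scale, all 48 miRNAs were detected on all 4 arrays. Their median difference was 0.02, with 12 higher and 5 lower at an unadjusted p under 0.05, beside 26.8% and 12.7% over all tested. In the middle class 46 of 47 were detected on all 4 arrays, the median was 0.14, and 15 were higher and 9 lower. In the lowest class, up to 5.62, only 12 of 47 were, so its median of 0.19 rests mostly on values at or near background on MT replicate 1. Of those 12, 11 were higher in MT, and detection on both MT arrays had itself favoured that side. The median SD between replicates in the MT group was 0.15 in the lowest and in the middle class and 0.10 in the highest. Relative to that of all tested, the class medians from lowest to highest were 0.06, 0.01 and -0.12. They fell in the same order under normexp (0.09, -0.06 and -0.32) but not under quantile normalization (-0.03, 0.05 and 0.004). The medians of the middle and highest classes changed sign in several alternatives, and a trend over the classes was not tested.

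**Figure D4:**
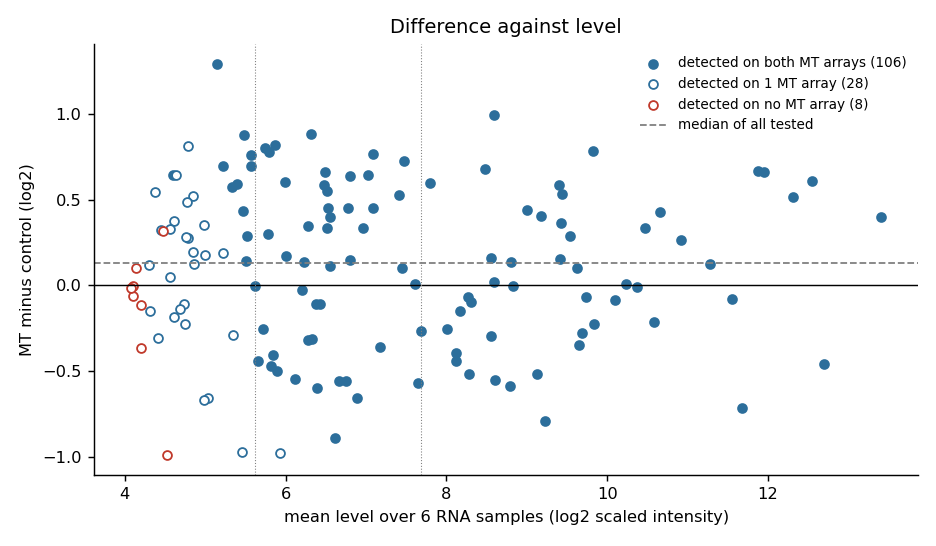
Difference between MT and control (log2, y axis) against the mean level over 6 RNA samples (log2 scaled intensity, x axis) for the 142 tested miRNAs; filled points were detected on both MT arrays, open blue points on 1 and open red points on none, and dotted lines part the 3 classes by level. Positive and negative differences occur at every level, and the open points lie at the low end.

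Base composition, one of several features looked at, went with the difference more closely than level did. Among the 122 miRNAs with a sequence, 51 contained at least 50% G and C, and 43 of these were higher in MT, with a median of 0.40. At an unadjusted p under 0.05, 20 of the 51 were higher and 0 lower, beside 26.8% and 12.7% over all tested. Of the 42 miRNAs with under 42% G and C, 29 were lower in MT, with a median of -0.23, and 6 were higher and 13 lower at that p. The 29 between had a median of -0.08. The 13 include miR-542-3p, detected on no MT array, and miR-19b-3p, miR-301a-3p and miR-30e-5p, each detected on 1. Also detected on 1 were miR-669n among the 6 and miR-1894-3p, miR-324-3p and miR-574-3p among the 20. These miRNAs entered the test through the control group and are no evidence of a direction. Among miRNAs detected on all 4 arrays the medians were -0.28 under 42% (29 miRNAs) and 0.43 at 50% or more (40 miRNAs). Pearson's r between the difference and the G and C share was 0.53 (Spearman's rho 0.54, n = 122 miRNAs on the same 4 arrays, a description with no test), and each 10 percentage points went with 0.26 on the log2 scale. Over the 91 of them detected on all 4 arrays r was 0.54. By single bases r was -0.47 for A, 0.30 for G, 0.16 for C and -0.10 for U. Of the 9 hairpins with a sequence for both tested arms, the arm richer in G and C had the more positive difference in 7.

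The same measure was taken between arrays that received the same treatment. For WT replicate 1 minus WT replicate 2, which lay left and right in the upper row and also differed in the number of miRNAs detected, r was 0.34. For MT replicate 1 minus MT replicate 2, both on the left, it was 0.28, and for the control replicates, both on the right, -0.09. Between the 2 arrays of each WT RNA it was 0.13 and -0.08. Each MT sample minus each control sample gave 0.35 to 0.50. With slide side added to the model, again estimated from the WT samples alone, r was 0.44. With the summed signal of each miRNA in place of the brightest probe it was 0.13. G and C share thus also moved with samples of the same group, and how much of the MT and control difference belongs to place on the slide cannot be told apart from the treatment. Where the linear trend on the G and C share was taken out of every sample, a step chosen after seeing the data, 28 miRNAs were higher and 7 lower at an unadjusted p under 0.05, and 0 passed the adjusted threshold. The gaps between miR-15a-5p and miR-15b-5p and between miR-148a-3p and miR-148b-3p are the same with or without this step by construction, since the share is equal within each pair.

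**Figure D5:**
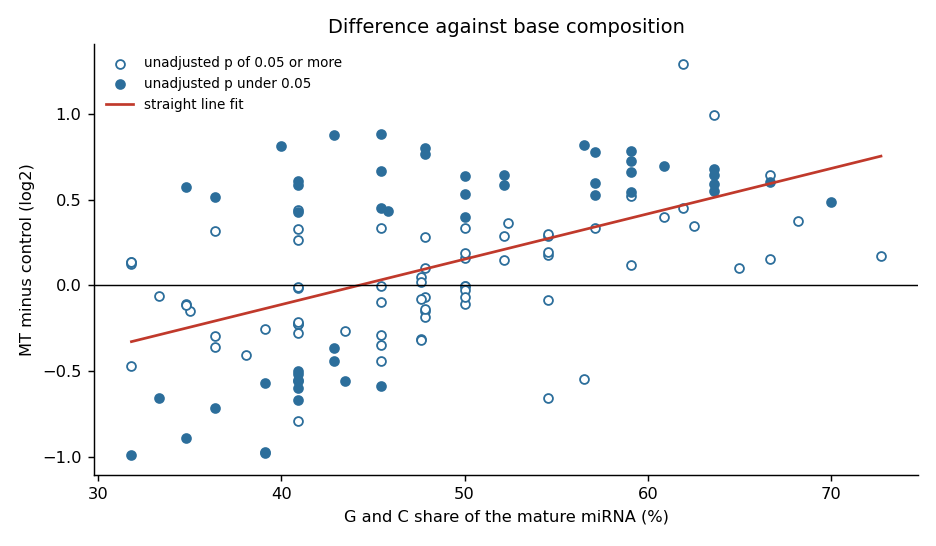
Difference between MT and control (log2, y axis) against the G and C share of the mature sequence (percent, x axis) for the 122 tested miRNAs with a sequence; filled points had an unadjusted p under 0.05 and the red line is a straight line fit. Filled points lie above 0 at high shares and on both sides at low shares.

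Lists of miRNAs with a known role were set beside these values. Of 8 tested miRNAs linked to hedgehog signalling, 3 were higher and 1 lower at an unadjusted p under 0.05, with a median of 0.29. They were miR-125b-5p, which targets Smoothened, miR-214-3p and miR-92a-3p on the higher side and miR-19b-3p on the lower. miR-19b-3p was detected on 1 MT array, and over the 5 members detected on all 4 arrays the median was 0.40. miR-324-5p, which targets Smoothened and Gli1, read 7.04 and 6.44 in MT and 6.40 and 6.28 in control (0.40, SE 0.23, adjusted p = 0.221 in limma). Of 14 tested cartilage and skeletal miRNAs 4 were higher and 1 lower, with a median of 0.25. Over the 11 of them detected on all 4 arrays the median was only 0.02. The 4 were miR-214-3p, miR-199a-5p, miR-199b-5p and miR-455-3p, a strand made with Col27a1 in cartilage, which read 6.37 and 5.84 in MT and 5.22 and 5.43 in control (0.78, SE 0.21), and the lower 1 was miR-29b-3p.

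The list of miRNAs that target Runx2, the factor of bone formation, took every arm of a named hairpin and had 6 tested members, with a median of -0.17. Of these, 1 was lower at an unadjusted p under 0.05. miR-34c-5p was the 1, and miR-218-5p read 5.78 and 5.66 in MT and 5.99 and 6.26 in control (-0.41, SE 0.18, adjusted p = 0.132 in limma). miR-23a-3p and miR-30c-5p lay at -0.08 and -0.27. The other 2, miR-135a-1-3p at 0.12 (detected on 1 MT array) and miR-34c-3p at -0.03 (groups overlapped), are opposite strands with other seeds. Of 8 miRNAs that p53 induces, 1 was higher and 2 lower, with a median of -0.07, and of 9 from the growth clusters of MYC and E2F, 2 were higher and 3 lower, with a median of -0.19. Over all 142 miRNAs 26.8% were higher and 12.7% lower at that p. Among the lower of the growth clusters, miR-19b-3p was detected on 1 MT array. Over the members detected on all 4 arrays the Runx2 list had a median of -0.27 (5 miRNAs). That of the p53 list was -0.11 (7 miRNAs) and that of the growth clusters 0.33 (7 miRNAs), on the other side of 0.

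Among the 8 miRNAs detected on no MT array, only miR-542-3p had a control mean above the mean of the lowest signals detected on the MT arrays. The other 7 were miR-195-5p, miR-7a-5p, miR-101a-3p, miR-22-5p, miR-196b-5p, miR-877-5p and miR-450b-3p, whose control means of 4.08 to 4.44 were under the mean of the lowest signals that counted as detected on the MT arrays, so no fold is given.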

How the data were processed

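For every one-colour Agilent array the authors deposited the spot intensity from the scanner after background subtraction within the array. The file headers name Feature Extraction 10.7.1.1 and the submitters' processing notes 9.1. The series value table held the same intensity values to within 0.005 units, so it gave no separate alternative. The sources used here do not say how the authors normalized them.

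Control and outlier spots were left out and spots averaged per probe. Scaling set arrays to a common 75th percentile over 174 probes that every array detected. Values were floored at 4.08 on the log2 scale. A probe counted as detected where a share above 0.5 of its spots was well above background. The brightest probe stood for a miRNA, and both arrays of each WT RNA were averaged. All 6 RNA samples were fitted with limma 3.58.1 in R 4.3.3 (lmFit, eBayes, Benjamini-Hochberg over 142 miRNAs, 3 residual degrees of freedom). The fit was run on simulated data with independent noise and changes larger than nearly all of those seen here. That run does not bear on differences of the size reported. The number of arrays limits the precision.

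miRNAs were named by rule: the 10 smallest p on each side of the median among those detected and not overlapping on the 4 arrays, members of families and clusters with at least 3 tested, the 5 brightest in control, members of lists, and those detected on no MT array. miR-188-5p, miR-210-3p and the pairs were named after their values were seen. Members and lists were chosen with earlier results of these data known. Old names of 4 tested miRNAs were updated. Alternatives covered scaling, signal column, background, floor, filter, probes, samples in the fit, replicate block, slide side, each replicate left out, level classes and cluster distance. Figures used matplotlib 3.10.9.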

Additional observations from a re-analysis of the deposited data

How the results depend on the processing

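With 2 samples a group and a scaling that rests on the arrays themselves, counts moved with most choices, and except where fewer miRNAs or samples were tested the cause was not tested. The count past an adjusted p of 0.05, 0 in the report, was 66 under normexp, 29 among the 103 miRNAs detected on all 8 arrays, 4 with the summed signal, 4 with the mean of all probes, 1 with the floor at 0.5 of its value, and 0 to 18 over the fits without 1 replicate. At an unadjusted p under 0.05, the 56 miRNAs became 26 with scaling on all mouse probes (0 higher), 23 with the summed signal (13 higher, 10 lower), 35 with the G and C trend removed (7 lower), 0 with slide side in the model (0 higher, 0 lower), and 22 to 54 over the fits without 1 replicate (16 to 37 higher, 2 to 19 lower). Normexp gave 71 higher and 10 lower, and no filter 9 lower. Scaling on all mouse probes left 61 miRNAs without overlap between groups, against 96. The median difference, 0.13, was -0.51 with scaling on all mouse probes, 0.021 with quantile normalization, -0.10 with the summed signal, 0.33 with normexp, 0.054 with the mean of all probes and 0 with no filter. The correlation with the G and C share, 0.53, was 0.13 with the summed signal, 0.24 with no filter, 0.44 with slide side in the model, and 0.45 to 0.53 over the fits without 1 replicate.

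Of the 20 miRNAs with the smallest p, only miR-181a-5p (-0.032) and miR-29b-3p (3.41) turned sign relative to the median of the setting, both with the summed signal. That check leaves out shifts of the median itself. With scaling on all mouse probes only 10.6% of the 142 miRNAs were above 0, and differences of miRNAs on the higher side, such as miR-99b-5p, fell below 0. Fitting MT and control alone (51 miRNAs at an unadjusted p under 0.05) or only miRNAs with a sequence (49) moved no count by over 1.5 times. The deviations of same-numbered MT and control samples correlated at -0.46, so the numbers did not pair the samples of these 2 groups. For WT and control the value was 0.39, and for WT and MT 0.02. The replicate block put 58 under an unadjusted p of 0.05 and none past the adjusted one. Crossing the MT numbers, chosen after seeing the data, gave 26 past the adjusted threshold. Classes by the WT level and a cluster distance of 50 kb (12 clusters for 11) gave like values. Signal over background on MT replicate 1 limits what can be said of miRNAs below 5.25.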
